A study of Homo sapiens with 4 samples.

Results

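The nicotinic acetylcholine receptor subunits CHRNA1, CHRNA3, CHRNA4, CHRNA5, CHRNA7, CHRNB1, CHRNB2, CHRNB4 and CHRNE, together with the receptor chaperone RIC3, were followed in Hep3B cells after knockdown of UNC50. Every probe other than a control whose gene name in the array files was one of these names was taken, which gave 11 probes for 10 genes, of 42405 probes for 34809 genes on the array. Hep3B is a human hepatocellular carcinoma cell line. Total RNA was labelled with the dye Cy3 and hybridised to 1-colour arrays of 60-base DNA probes, 1 array each for cells with the mock plasmid shR-MOCK and for cells with plasmid shR-467, plasmid shR-554 or plasmid shR-749. Each of the latter 3 expresses a different short hairpin RNA against UNC50, named by its position in the UNC50 mRNA, and all 4 cultures were transfected and then selected with puromycin, the mock culture included. Knockdown was thus measured in 3 replicates that differ in their hairpin, and their spread holds whatever belongs to 1 hairpin alone. The mock condition had no replicate, so its own spread is not known.

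Nicotinic receptors are cation channels built from 5 subunits around a pore and opened by acetylcholine, and belong to the Cys-loop family with the 5-HT3, GABA-A and glycine receptors. CHRNA1, CHRNB1 and CHRNE are subunits of the receptor of the neuromuscular junction, whereas CHRNA3, CHRNA4, CHRNA5, CHRNA7, CHRNB2 and CHRNB4 form the receptors of neurons and ganglia, several of which are also known in epithelial and cancer cells. The subunits fold and assemble in the endoplasmic reticulum with the help of chaperones such as RIC3. UNC50 is a membrane protein of the Golgi apparatus, whose nematode ortholog is needed for certain nicotinic receptors to reach the cell surface. The arrays measured mRNA, so neither assembly nor transport of a receptor was measured.

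Probes that read coding sequence are printed to show which stretch of each mRNA was read, in the sense direction and with positions on hg19 from the array annotation. The first of the CHRNA1 probes covers the Cys-loop that names the family, with its 2 cysteine codons in capitals and 13 codons between them (chr2:175618993-175619052, minus strand). The second covers the membrane span that lines the channel (chr2:175614837-175614896, minus strand). The CHRNA3 probe lies in the intracellular loop before the last membrane span (chr15:78893596-78893655, minus strand), and the CHRNA5 probe reads into the last membrane span (chr15:78885456-78885515, plus strand). Of the CHRNA7 probe the first 39 of 60 bases are given, which end at the stop codon in capitals (the whole probe is chr15:30654475-30654534, minus strand).
CHRNA1 probe A_33_P3365305: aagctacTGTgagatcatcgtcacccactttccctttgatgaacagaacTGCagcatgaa
CHRNA1 probe A_23_P90888: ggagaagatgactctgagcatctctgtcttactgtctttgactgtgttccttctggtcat
CHRNA3 probe A_33_P3388148: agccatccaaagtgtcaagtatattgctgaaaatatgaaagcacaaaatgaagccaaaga
CHRNA5 probe A_23_P88691: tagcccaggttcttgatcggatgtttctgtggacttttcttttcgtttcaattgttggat
CHRNA7 probe A_33_P3719083: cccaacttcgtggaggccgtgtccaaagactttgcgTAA
The transcripts that the array annotation lists for the CHRNA7 probe belong to CHRNA7 and to CHRFAM7A, a partial copy of CHRNA7. This probe therefore cannot tell the pair apart. The position annotated for it need not be that of CHRNA7 and may be that of CHRFAM7A. The other probes lie on chr20:61974727-61974786, minus strand, for CHRNA4, chr17:7360295-7360354, plus strand, for CHRNB1 and chr17:4801880-4801939, minus strand, for CHRNE. Those of CHRNB2, CHRNB4 and RIC3 lie on chr1:154552292-154552351, plus strand, chr15:78917157-78917216, minus strand, and chr11:8130669-8130728, minus strand. The GC content of the 11 probes ran from 35% to 55.0%.

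UNC50 itself had a signal of 5010 in mock cells, 1050 under shR-467, 853 under shR-554 and 947 under shR-749, where signal is the background-subtracted brightness of a spot in scanner units. All 3 hairpin arrays lay far below the mock array. After each array was scaled to its 75th percentile, UNC50 stood at 24%, 13.7% and 18.7% of mock, a mean log2 difference of -2.45 ± 0.40 (SD, n = 3 hairpins). The limma p was 1.42e-04 unadjusted and 0.703 after adjustment over 30275 probes. The UNC50 probe spans transcript bases 431 to 490, which include the label position 467 of shR-467 and neither 554 nor 749. Whether shR-467 touches the probe's reading was not tested.

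The scanner software marks a spot as well above background when its signal clearly exceeds the local background, a mark carried by 67.6% to 73.6% of the spots, depending on the array. A probe was counted as detected on an array when at least 50% of its spots were marked. The 10 hepatocyte and hepatoma marker genes were all detected on the 4 arrays, in 12 of 12 probes. The 4 arrays shared 1 slide and 1 scan.

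In Hep3B cells 5 of the 10 genes were detected on all 4 arrays, namely the neuronal subunits CHRNA4, CHRNA5 and CHRNA7 and the muscle subunits CHRNB1 and CHRNE. For CHRNA7 this stands on the probe shared with CHRFAM7A, so which of the pair was detected cannot be told apart. CHRNA3, CHRNB2 and RIC3 were detected on none. CHRNA1 and CHRNB4 were detected on some arrays only. By probe, 5 of 11 (45.5%) were detected on all 4 arrays and 4 of 11 (36.4%) on none, against 61.5% and 25.4% of all 42405 probes. CHRNA5, CHRNA3 and CHRNB4 are consecutive protein-coding genes on chromosome 15, and of these CHRNA5 was detected throughout, CHRNB4 in 1 spot of 1 array and CHRNA3 nowhere.

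**Figure D1:**
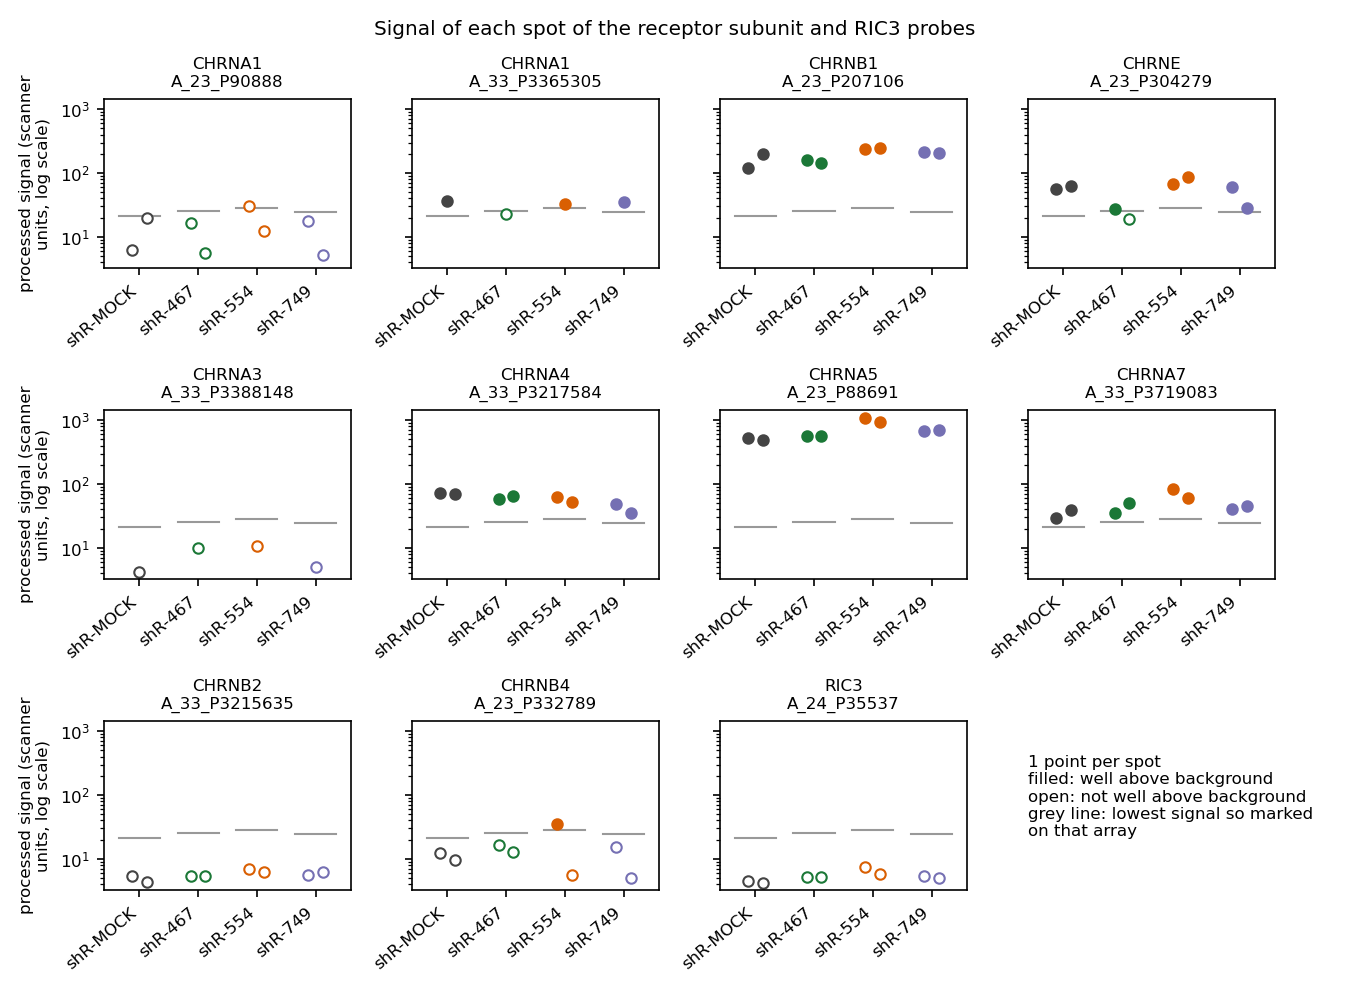
Processed signal in scanner units (log scale) of each spot of the 11 probes in mock cells and under shR-467, shR-554 and shR-749 in turn, with filled points for spots well above background, open points for the others and a grey line at the lowest signal so marked on each array. The CHRNA5 spots lie between 497 and 1100, far above the lines, whereas the CHRNA3, CHRNB2 and RIC3 spots all lie below them.

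No subunit reached a 1.5-fold mean difference from mock, the size the study's methods ask for, and none passed limma. A probe entered these counts when it was detected on the mock array or on all 3 hairpin arrays, which kept 30275 probes and 6 of the 11 described here. Of the kept probes, 30245 were detected on the mock array, so the filter favours probes that read high there. Among all kept probes 2.25% were at least 1.5-fold higher and 7.35% at least 1.5-fold lower on average, and 0 of the 6 were in either group. These are 681 and 2225 probes, against 601 and 739 with detection required on all 4 arrays. The shares of lower probes given here and below thus depend on the filter. With every hairpin at least 1.5-fold away in the same direction, the shares were 0.552% higher and 1.23% lower, and again 0 of the 6 passed. CHRNA5, CHRNA7 and CHRNB1 lay above mock with every hairpin, as did 17.7% of all kept probes, and CHRNA1 and CHRNA4 lay below mock with every hairpin, as did 20.6%. The CHRNA1 probe was kept through the mock array alone, which favours a high mock reading, so its direction carries no weight. The median of the 6 mean differences was -0.01 on the log2 scale, against -0.03 for all kept probes. The median size of the 6 without sign was 0.48, against 0.17 for all kept probes, with no match for signal. The kept probes of CHRNA1, CHRNA4, CHRNA7 and CHRNE had mock signals of 34.0 to 72.0, below the mock array's median of 123. The spots of a probe agreed less at low signals, and the part of this in the sizes was not tested. limma called 0 probes of 30275 (0.0%) at an adjusted p under 0.05 and 450 (1.49%) at an unadjusted p under 0.05, with 0 of the 6 among them. The methods' t-test gave 0 and 813 probes, also with 0 of the 6. With 3 arrays against 1, an exact permutation test cannot go below p = 0.25.

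**Figure D2:**
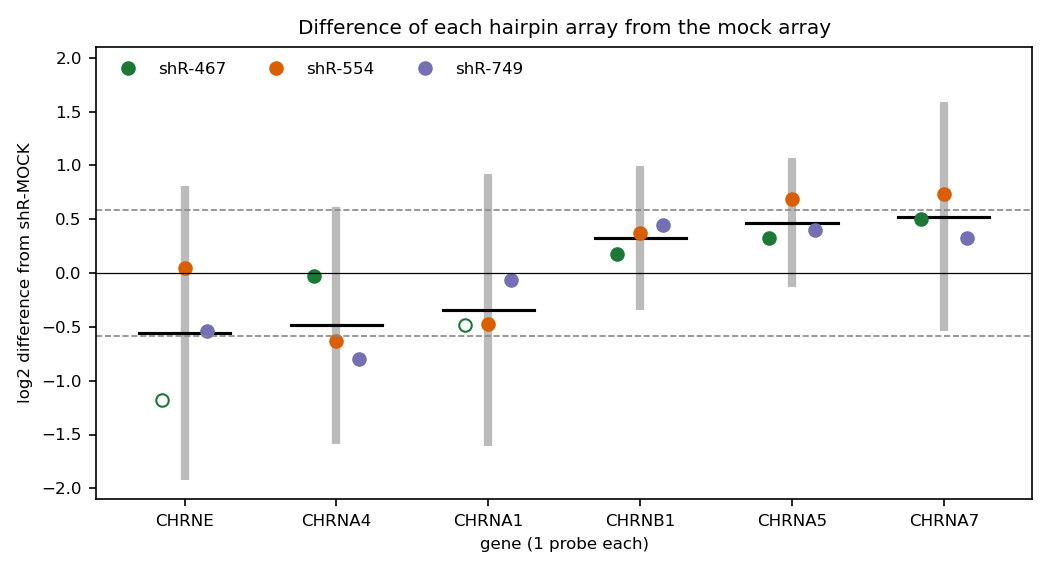
Log2 difference of each hairpin array from the mock array for the 6 kept probes (points). A point is open where not every spot of the probe was well above background on that hairpin array. The black line is the mean, the grey bar limma's 95% interval, and the dashed lines stand at 1.5-fold. CHRNA5, CHRNA7 and CHRNB1 lie above 0 with every hairpin, CHRNA4 and CHRNA1 below it, and every interval spans 0.

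Among the muscle subunits, CHRNB1, the beta subunit present in fetal and adult muscle receptors, was detected in both of its spots on every array. Its mean signal was 153 in mock cells, 151 under shR-467, 245 under shR-554 and 210 under shR-749. After scaling, the mock array was the lowest and shR-749 the highest, with log2 differences from mock of 0.17 under shR-467, 0.37 under shR-554 and 0.45 under shR-749. The mean was 0.33 ± 0.14 (SD, n = 3), or 126% of mock, with a 95% interval from -0.34 to 1.00 and a limma p of 0.281 unadjusted and 0.9998 adjusted. This direction rested on 1 spot of the mock array. The 2 mock spots read 119 and 197, a 1.66-fold gap, while the spots of the hairpin arrays lay within 1.11-fold of each other. Read from the first spot alone the mean log2 difference was 0.72, and from the second alone it was -0.06.

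CHRNE, which replaces the fetal gamma subunit in adult muscle, had the lowest mean difference of the kept probes. Its mean signal was 59.5 in mock cells, 23.0 under shR-467, 76.3 under shR-554 and 41.4 under shR-749. The hairpins did not move alike, since shR-467 and shR-749 lay below mock and shR-554 did not. The log2 differences were -1.18, 0.05 and -0.54, with a mean of -0.55 ± 0.61 (SD, n = 3), or 68.1% of mock, a 95% interval from -1.92 to 0.81 and a limma p of 0.367 unadjusted and 0.9998 adjusted. With shR-467 only 1 of its 2 spots was marked, and the mean signal of the pair was 0.901 times the weakest marked signal of that array. With shR-749 the 2 spots read 60.5 and 28.3. The mean was -0.24 without shR-467 and -0.86 without shR-554, which is past 1.5-fold.

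CHRNA1, the muscle subunit that carries the acetylcholine site, was read by 2 probes. The Cys-loop probe, printed in 1 spot, gave 37.0 in mock cells, 23.1 under shR-467, 33.0 under shR-554 and 35.6 under shR-749, and was detected on all arrays but that of shR-467. All 3 hairpins lay at or below mock after scaling, with shR-749 close to it. The probe was kept through the mock array alone, so this direction is not free of that selection. The log2 differences were -0.48, -0.48 and -0.07, with a mean of -0.34 ± 0.24 (SD, n = 3), a 95% interval from -1.61 to 0.92 and a limma p of 0.541 unadjusted and 0.9998 adjusted. The channel probe gave 11.1, 9.59, 19.2 and 9.66 in mock cells and under shR-467, shR-554 and shR-749 in turn, with no spot marked, and its 2 spots differed by 2.48- to 3.36-fold on each array. No fold was taken from it.

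CHRNA5 had the smallest standard error of the 6 kept probes in limma, 0.25 on the log2 scale. It is an accessory subunit that joins receptors of other neuronal subunits without forming a channel alone. Its 2 spots read 528 and 497 in mock cells, 562 and 557 under shR-467, 1100 and 952 under shR-554 and 667 and 696 under shR-749, which is 21.9 to 36.2 times the lowest signal well above background. Every spot of the hairpin arrays lay above both mock spots, before and after the arrays were scaled. On the scaled log2 level the order was shR-MOCK at -1.13, shR-467 at -0.81, shR-749 at -0.73 and shR-554 at -0.44. The steps from mock to shR-467 and from shR-749 to shR-554 were larger than the widest gap between its spots, as the gaps were 0.01 to 0.21, whereas the step from shR-467 to shR-749 was not. The log2 differences were 0.32 under shR-467, 0.69 under shR-554 and 0.40 under shR-749, with a mean of 0.47 ± 0.19 (SD, n = 3), or 138% of mock. The 95% interval ran from -0.13 to 1.07, and the limma p was 0.105 unadjusted, rank 1059 of 30275, and 0.9998 adjusted. Read from either spot alone the mean was 0.45 or 0.49. The spots of 1 array do not measure the spread between cultures.

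CHRNA7, which can form channels on its own, was detected in both spots on every array but only at 1.60 to 2.48 times the lowest signal well above background. The probe shared with CHRFAM7A gave mean signals of 34.0 in mock cells, 42.0 under shR-467, 70.1 under shR-554 and 43.0 under shR-749. The mock array was the lowest and shR-554 the highest, also after scaling. The log2 differences were 0.50, 0.73 and 0.33, with a mean of 0.52 ± 0.20 (SD, n = 3), or 144% of mock, a 95% interval from -0.54 to 1.59 and a limma p of 0.283 unadjusted and 0.9998 adjusted. A separate probe named for CHRFAM7A gave log2 differences of 0.32 under shR-467, -1.37 under shR-554 and -0.48 under shR-749, with a mean of -0.51. The pair of probes thus lay on opposite sides of mock with shR-554 and shR-749. The mean for CHRNA7 passed 1.5-fold at 0.59 under quantile normalization, at 0.59 with the values as processed by the authors and at 0.62 without shR-749. It fell to 0.26 with normexp background correction, to 0.42 without shR-554 and to 0.36 from the second spot alone.

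CHRNA4, which forms the main receptor of the brain together with CHRNB2, was detected in both spots on every array. Its mean signal was 72.0 in mock cells, 61.7 under shR-467, 57.8 under shR-554 and 41.7 under shR-749. The array of shR-467 stood next to mock after scaling, and those of shR-554 and shR-749 were lower. The log2 differences were -0.03, -0.63 and -0.80, with a mean of -0.49 ± 0.41 (SD, n = 3), or 71.4% of mock, a 95% interval from -1.59 to 0.62 and a limma p of 0.331 unadjusted and 0.9998 adjusted. Without shR-467 the mean was -0.71, and both remaining hairpins were past 1.5-fold. With normexp background correction the mean was -0.19.

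The partner subunits of the neuronal receptors were not detected in most readings. CHRNB2 had mean signals of 4.82, 5.38, 6.57 and 5.90 in mock cells and under shR-467, shR-554 and shR-749 in turn. CHRNA3, the main ganglionic subunit, had 4.23, 10.0, 10.6 and 4.99 in its single spot. All of these lay below the lowest signal well above background, which was 21.2, 25.5, 28.3 and 25 on the 4 arrays, so no fold was taken. CHRNB4, the usual partner of CHRNA3, had mean signals of 10.9, 14.6, 14.1 and 8.81, and its mark rested on 1 spot with shR-554 that read 35.2 beside a second spot at 5.67. RIC3, the chaperone, had 4.39, 5.23, 6.53 and 5.24, with no spot marked. Being below detection on these arrays does not show that an mRNA was absent.

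Singly, hairpins moved some of the 6 kept probes past 1.5-fold. With shR-467, CHRNE was lower, as were 6.52% of all kept probes, and 0 were higher (6.91% of all). With shR-554, CHRNA5 and CHRNA7 were higher (4.36% of all) and CHRNA4 was lower (15.2% of all). With shR-749, CHRNA4 was lower (10.1% of all) and 0 were higher (5.37% of all). No subunit moved past 1.5-fold with all 3 hairpins.

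**Figure D3:**
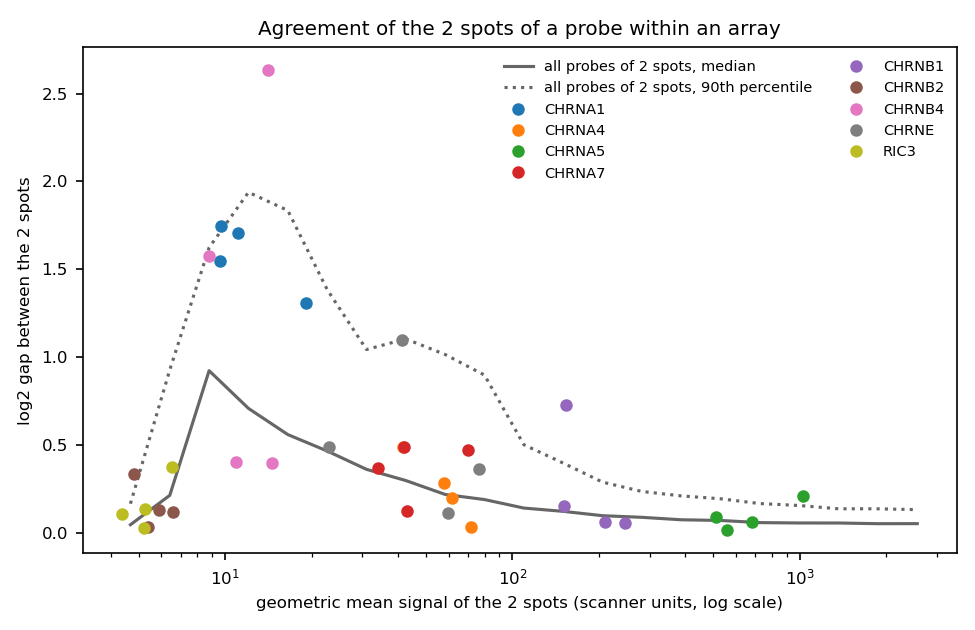
Log2 gap between the 2 spots of a probe on 1 array (1 point per probe and array, for the 9 genes with 2 spots) against their geometric mean signal in scanner units (log scale), with the median and the 90th percentile over all probes of 2 spots as lines. The gaps of CHRNA5 are 0.01 to 0.21, whereas the CHRNB1 gap of 0.73 on the mock array and the CHRNE gap under shR-749 lie near or above the 90th percentile.

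The spots of a probe lay closer together at higher signals. Over all probes printed in 2 spots, the median log2 gap between the spots of 1 array was 0.33 at signals of 25 to 50, where CHRNA7 mostly lies, 0.20 at 50 to 100, 0.11 at 100 to 300 and 0.06 at 300 to 1000. The 90th percentiles were 1.08, 0.89, 0.36 and 0.19. These gaps measure the error of the array surface alone, and nothing of the spread between cultures.

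The other nicotinic subunits showed no common shift. Of 8 genes, CHRNA10, CHRNB3, CHRND and CHRFAM7A were detected on all 4 arrays, and 0 of 5 kept probes changed 1.5-fold on average, with a median log2 difference of -0.22. CHRNA10, a subunit of the inner ear that is also found in other tissues, gave 147, 126, 189 and 132 in mock cells and under shR-467, shR-554 and shR-749 in turn and a mean difference of -0.05. The muscarinic receptors, the other family of acetylcholine receptors, had 0 of 5 genes detected on all 4 arrays. Of the other Cys-loop receptor subunits, 9 of 30 genes were detected on all 4 arrays, against 21498 of 34809 genes on the whole array. Of 14 kept probes, 1 was higher and 3 were lower by 1.5-fold on average, beside 2.25% and 7.35% of all kept probes, and 0 passed with every hairpin. The higher one was that of GABRB2, a GABA-A receptor subunit, at 0.70 ± 0.83 (SD, n = 3), and those lower included the 5-HT3 receptor subunits HTR3C at -0.98 ± 0.91 and HTR3B at -0.81 ± 0.94. The probes of HTR3C and HTR3B were also kept through the mock array alone. These names, like those of HSPA5 and DOK7 in the lists that follow, were chosen with their values in view.

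The factors of receptor assembly and exit from the endoplasmic reticulum were nearly all detected. Of 21 genes, 20 were detected on all 4 arrays, the exception being TMEM35, which encodes the nicotinic receptor chaperone NACHO, with signals of 4.30, 5.21, 5.87 and 5.06 in mock cells and under shR-467, shR-554 and shR-749 in turn. RIC3 and NACHO, both known to promote assembly of CHRNA7 receptors, were thus below detection on every array. Of 28 kept probes, 1 was higher and 0 lower by 1.5-fold on average, with a median log2 difference of -0.05. NCLN and NOMO1, partners in a complex of the endoplasmic reticulum and the list genes with the highest mean signals, had mean differences of 0.16 and, in the 2 probes of NOMO1, 0.04 and -0.13. HSPA5, the chaperone BiP, was the probe that was higher, with signals of 1125, 1130, 2083 and 2355 and a mean of 0.61 ± 0.43 (SD, n = 3). Its log2 difference was 0.20 under shR-467, 0.58 under shR-554 and 1.05 under shR-749. All 3 hairpins thus lay above mock, but by unlike amounts, and only shR-749 was past 1.5-fold.

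The Ly6 proteins bind nicotinic receptors from outside, and 0 of their 9 kept probes changed 1.5-fold on average (median -0.25). LY6E had a mean of -0.25. The 4 kept probes of LYNX1 differed, with means of 0.26, 0.08, -0.01 and -0.35. Their mock signals were 585, 532, 10.4 and 47.4 in the same order, so the lower means came from dim probes. The probe at 10.4 was detected on 1 array only. Of the 5 genes that cluster receptors at the neuromuscular junction, AGRN had a mean difference of -0.33 and LRP4 of -0.03. DOK7, the adaptor of the receptor kinase MUSK, was the 1 lower probe, with signals of 53.7, 9.79, 15.5 and 29.4 in mock cells and under shR-467, shR-554 and shR-749 in turn. Only the mock array and 1 of 2 spots with shR-749 were marked. The mean log2 difference of DOK7 was -1.75 ± 0.76 (SD, n = 3), with a limma p of 0.060 unadjusted and 0.9998 adjusted, but it was -0.99 with low signals set to that of the weakest marked spot and -0.45 with normexp. Of 6 kept probes for acetylcholine synthesis, transport and breakdown, 1 was lower, that of PRIMA1, the membrane anchor of acetylcholinesterase, at -0.84 ± 0.98 (SD, n = 3). PRIMA1 and SLC18A3, the vesicular acetylcholine transporter, had the highest mean signals of that list, and SLC18A3 had a mean difference of 0.16.

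**Figure D4:**
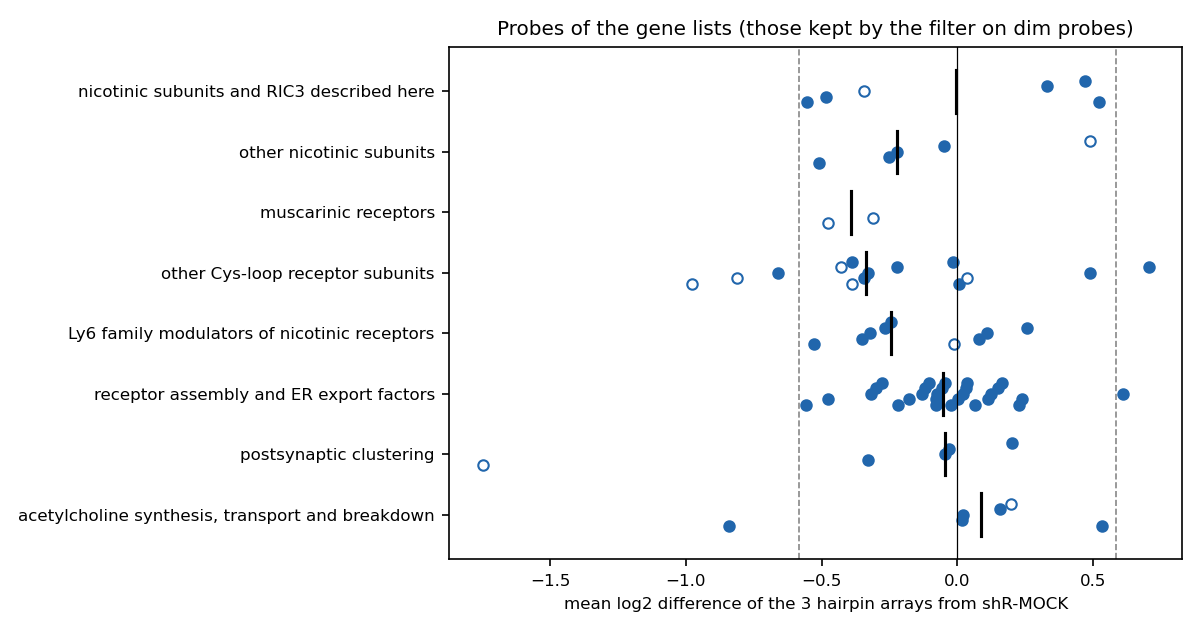
Mean log2 difference of the 3 hairpin arrays from the mock array for each kept probe of the receptor and acetylcholine gene lists, without the cell type markers (points, filled where the probe was well above background on all 4 arrays), with the median of each list as a black bar and 1.5-fold as dashed lines. The medians of the plotted lists lie between -0.39 and 0.09, and among the plotted probes that of DOK7 lies farthest from 0, at -1.75.

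Markers of other cell types were compared beside these results. Of the neuron markers, 2 of 7 probes were detected on all 4 arrays, those of SNAP25 and SYT1, while ELAVL3 was detected on none, and the summed signal was 745 on the mock array and 730 to 1388 with the hairpins. SNAP25 gave 430, 797, 1079 and 415 in mock cells and under shR-467, shR-554 and shR-749 in turn, a mean log2 difference of 0.68 ± 0.64 (SD, n = 3). The other 3 kept neuron probes lay lower, those of SYT1 at -0.62 ± 0.73 and -0.04 ± 0.11 and that of SYN1 at -0.34 ± 0.82, so that 1 of 4 kept probes was higher and 1 lower by 1.5-fold on average. Of the skeletal muscle markers, 4 of 6 probes were detected on all 4 arrays, 0 of 5 kept probes changed 1.5-fold on average, and the summed signal was 708 on the mock array and 546 to 910 with the hairpins. The leukocyte markers had 4 of 8 probes detected on all 4 arrays, also with 0 of 4 kept probes changed. Of the hepatocyte markers, 5 of 12 probes were at least 1.5-fold higher on average, against 2.25% of all kept probes, 4 of them with every hairpin, namely TTR at 0.81, FGB at 1.75 and APOA1 at 1.13 and 1.01 in its 2 probes. Their summed signal was 490766 on the mock array and 618016 to 731454 with the hairpins. The summed signals of all these lists were taken before scaling. The 75th percentile was 1120 on the mock array and 978, 1390 and 1130 under shR-467, shR-554 and shR-749. limma called 0 of the 12 hepatocyte probes at an adjusted p under 0.05 and 4 at an unadjusted p under 0.05. The part of these markers in the differences of the receptor subunits was not tested, and more cells of a type cannot be told apart from more RNA per cell.

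By the root mean square distance over the 3 log2 differences from mock, the probes nearest to CHRNE among 18103 named probes detected on all 4 arrays were those of UBL4B at 0.08, ZNF630 at 0.14 and RHEBL1 at 0.16. CHRNE was compared because its mean difference had the largest size among the probes of these genes detected on all 4 arrays. The likeness rests on 3 values that share the mock array, and the gap of 0.49 between the CHRNE spots under shR-467 was wider than these distances, so their order carries no weight.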

How the data were processed

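RNA of 4 Hep3B cultures was read on 1-colour Agilent arrays. The authors deposited the spot intensity of each array from Agilent Feature Extraction 10.7.1.1, per the file headers, with background already subtracted, and a table of log2 values whose normalization is not given in the sources used here. Groups were taken from the labels. From each log2 processed signal the 75th percentile of its array was subtracted, taken over spots other than controls, outlier spots were left out (254 to 466 per array) and the spots of a probe averaged. No spot was saturated. Probes had to be well above background either with mock or with all 3 hairpins. Differences were tested with limma 3.58.1 (lmFit, eBayes with trend, Benjamini-Hochberg over 30275 probes, 2 residual and 4.88 prior degrees of freedom); the single mock array is taken to have the same variance as the hairpin arrays. p-values measure only the spread between these arrays, since separate cultures are not stated. The number of arrays limits the precision.

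The genes and lists were chosen with earlier results of these data known. All 10 genes are named. In other lists the rule took genes changed 1.5-fold with every hairpin and detected on all 4 arrays. It also took the 2 genes with the highest mean signal. Not every gene so taken is named, and some genes are named outside this rule. For likeness, 3 probes were named. Names follow the array design, and RefSeq (GRCh38.p14) gave current names and gene order only. Alternatives were quantile normalization, median scaling, normexp with an offset of 50, the authors' values, low signals raised, outlier spots kept, other filters, a 2-fold threshold, 1 probe per gene, limma without trend, the methods' t-test, each hairpin left out and, chosen after seeing the data, each spot alone. The steps were tested on simulated data. Python 3.11.15, numpy 2.4.6, pandas 2.3.3 and scipy 1.17.1 were used. Some genes of the lists are not reported here.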

Additional observations from a re-analysis of the deposited data

How the results depend on the processing

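The number of receptor probes with a mean difference of at least 1.5-fold was 0, and it was 1 under quantile normalization (CHRNA7), 1 with the table processed by the authors (CHRNA7), 1 with no filter on dim probes (CHRNA3, which was well above background on no array) and 1 in each case, from 1 to 1, when a hairpin was left out, namely CHRNA4 without shR-467, CHRNE without shR-554 and CHRNA7 without shR-749. The number changed with every hairpin was 0, and 0 to 1 with a hairpin left out, the 1 being CHRNA4 without shR-467. The number well above background was 5 and became 8 with the software's mark for a positive and significant signal, which added both CHRNA1 probes and CHRNB4, and 4 with every spot required to be marked, which dropped CHRNE. limma called 0 of these probes under every setting run. The mean of CHRNB1 turned to -0.061 when its second spot was taken alone. Apart from that, CHRNA5 ran from 0.36 to 0.54, CHRNA7 from 0.26 to 0.68, CHRNA4 from -0.71 to -0.19, CHRNE from -0.86 to -0.23 and CHRNA1 from -0.48 to -0.07 over the settings run. The cause of these shifts was not tested. Over all kept probes, 681 were higher and 2225 lower on average (76.6% lower), and the share lower was 52.4% with normexp (297 and 327), 55.1% with detection required on all 4 arrays (601 and 739), 59.3% with low signals raised (729 and 1062), 61.9% without shR-554 (1070 and 1736) and 62.3% with no filter (2408 and 3986). Over all probes limma called 4 with normexp and 1 without shR-554. No paired analysis was possible because the mock group had 1 array and its number pairs it with no single hairpin. A block for slide or scan could not be fitted, as there was 1 of each. Signals close to background limit CHRNA1, CHRNA4, CHRNA7 and CHRNE.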
